A study of Mus musculus with 9 samples.

Results

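Interneuron peptides and calcium-binding proteins were represented by 8 genes, chosen by name: the peptide precursors Sst, Vip and Cck, the calcium-binding proteins Pvalb, Calb1 and Calb2, the secreted glycoprotein gene Reln and the transcription factor gene Lhx6. Each was found on the array through the RefSeq accession of its probes. The 8 genes had 10 probes and 46 spots among the 16355 genes that could be named, and all 8 were among the 12615 genes fitted, which were well above background on at least 3 arrays. The probes of 7 of these genes were well above background on all 9 arrays, and the Lhx6 probe on 4.

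The samples were amygdala, hypothalamus and prefrontal cortex from male wild-type C57BL/6J mice aged 8 to 9 weeks, taken on day 8 of a feeding regimen, and RNA levels were read with 1-colour Agilent whole mouse genome arrays. Control mice ate ad libitum (AD). Mice on repeated fasting and refeeding (RFR) alternated days without food and days of free feeding, and mice on caloric restriction (CR) received a fixed share of what the RFR mice had eaten. A region and diet had 1 array, 9 in all, of RNA pooled in equal amounts from 4 mice. So no combination had a replicate, the 3 arrays of a diet came from the same mice, and p-values for diets are too small. A level here is log2 processed signal minus the 75th percentile of the array, so 0 is the level of a spot brighter than most. Levels of different probes cannot be set against each other, and only the differences of a probe between arrays are compared.

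Cortical inhibitory neurons, which release GABA, fall into classes that are recognised by such molecules. Parvalbumin marks fast-spiking cells that contact cell bodies, somatostatin marks cells that contact dendrites, and vasoactive intestinal peptide marks cells that mostly inhibit other interneurons, while Reln is made by cells of the outermost cortical layer and by many interneurons. The genes are not confined to these cells: Cck is also made by many excitatory cortical and amygdala neurons, hypothalamic neurons use Sst and Vip as hormones or local signals, and Calb1 and Calb2 occur in projection neurons of many regions. Lhx6 directs the development of somatostatin and parvalbumin cells of the cortex and stays on in them.

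Of 43379 noncontrol spots, 59.8% to 69.6% were well above background depending on the array, and none of the member probes was saturated. The AD arrays and the RFR prefrontal cortex array shared slide 1, the CR amygdala array was alone on slide 3 and its scan, and the other 4 arrays shared slide 2. The labels place the prefrontal cortex slice at 2.5 to 3.5 mm behind bregma, further back than the slice of amygdala and hypothalamus (1.5 to 2.5 mm), and whether that position is meant as written is not known. Marker genes were compared with the labelled regions. All 14 hypothalamic neuron markers were higher in hypothalamus than in prefrontal cortex in the limma fit, with summed linear levels of 377 to 460 on hypothalamus arrays, 13.0 to 20.9 on amygdala arrays and 1.78 to 2.47 on prefrontal cortex arrays. Of 12 markers of cortical excitatory neurons, 10 were lower and 1 was higher in hypothalamus than in prefrontal cortex, and the summed level was 14.5 to 15.2 in hypothalamus, 61.9 to 98.3 in amygdala and 130 to 143 in prefrontal cortex. In amygdala the AD array had 98.3, the RFR array 61.9 and the CR array 68.7.

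RefSeq promoter entries of mouse build GRCm38.p6 were matched for 6 of the 8 genes. The 100 bases before the start site are shown for the peptide precursors, because these are the members whose transcripts are classic targets of cyclic AMP signalling. Capitals mark matches, searched on both strands, to 4 motifs. These were the cyclic AMP response element TGACGTCA, its shorter core TGACG, which the full element contains and which appears in reverse complement where it lies on the other strand, the E-box motif CACGTG, and TATAAA, the usual form of the element that binds the TATA-binding protein. Sst lies on the minus strand (chr16:23890845-23890944), Vip on the plus strand (chr10:5639118-5639217) and Cck on the minus strand (chr9:121495695-121495794).
Sst: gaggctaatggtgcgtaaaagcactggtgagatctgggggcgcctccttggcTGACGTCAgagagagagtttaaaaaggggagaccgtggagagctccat
Vip: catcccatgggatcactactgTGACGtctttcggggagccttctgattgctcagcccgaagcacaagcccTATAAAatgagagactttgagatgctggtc
Cck: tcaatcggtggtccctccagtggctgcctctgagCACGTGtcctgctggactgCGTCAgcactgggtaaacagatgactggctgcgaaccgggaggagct
Sst held the full element from -48 to -41 relative to the start. Vip held the core from -79 to -75 and the TATAAA motif from -30 to -25. Cck held an E-box from -66 to -61 and the core on the other strand from -47 to -43. Of 32851 promoter windows of the same length, 1.15% held the full element, 10.5% held its core, 3.17% held the E-box and 5.56% held the TATAAA motif. A match describes letters only, and no binding was measured here.

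Among the members called between regions, Cck, Calb2, Pvalb and Vip differed most, and Sst, Calb1 and Reln less. Cck was 34.8-fold lower in hypothalamus than in prefrontal cortex, Pvalb and Vip were highest in prefrontal cortex, Calb2 was highest in hypothalamus and lowest in prefrontal cortex, and Reln was highest in amygdala. With limma and Benjamini-Hochberg adjustment over all genes fitted, 5 of the 8 members differed between amygdala and hypothalamus (3 higher, 2 lower in amygdala), where 29.5% of all genes did (13.5% higher, 15.9% lower). Between amygdala and prefrontal cortex 5 differed (2 higher, 3 lower in amygdala) against 22.3% of all genes (12.1% higher, 10.2% lower), and between hypothalamus and prefrontal cortex 6 (2 higher, 4 lower in hypothalamus) against 48.0% of all genes (26.7% higher, 21.3% lower). The median difference of the members was 0.21, -0.23 and -0.25 in these 3 comparisons, and that of all genes was -0.06, 0.00 and 0.06. In tissue RNA, fewer cells of a type and less RNA per cell cannot be told apart.

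**Figure D1:**
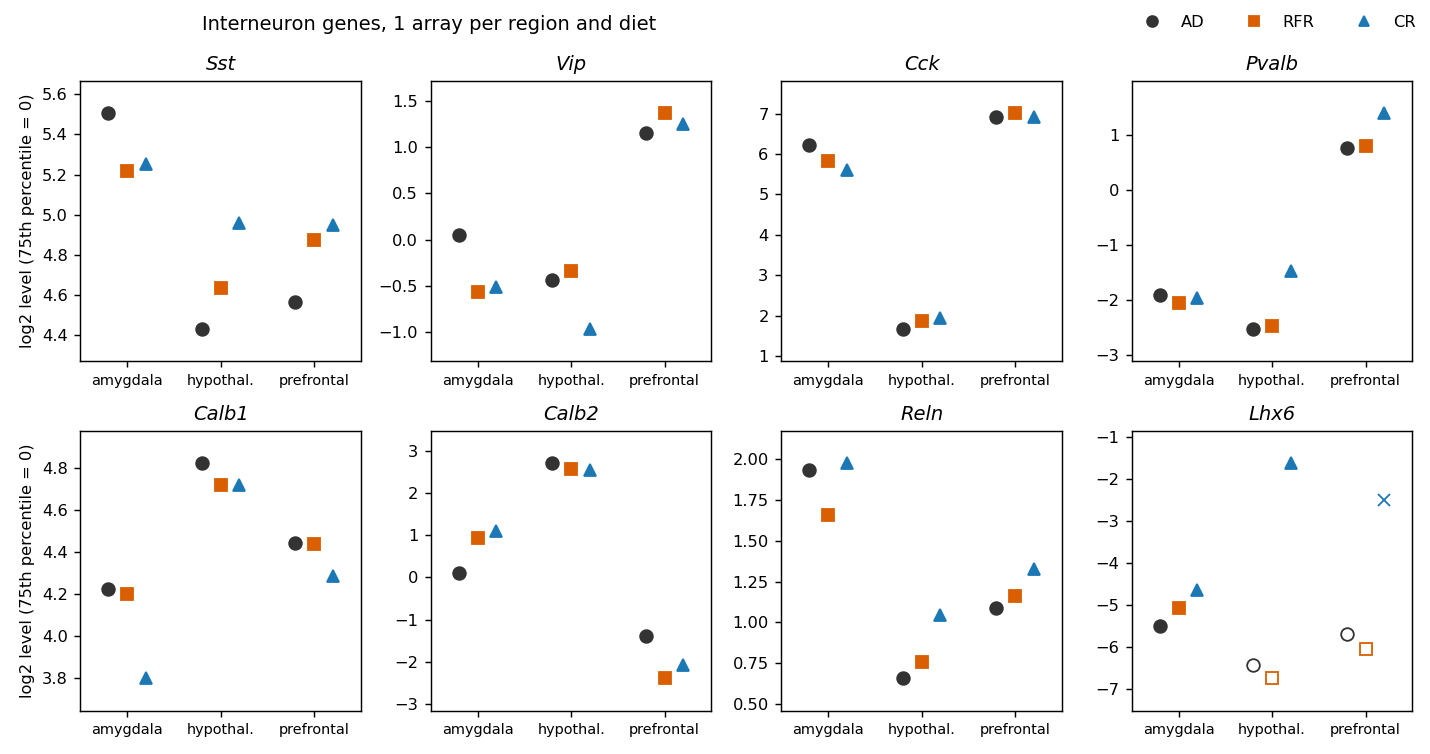
Levels of the 8 genes on the 9 arrays, as log2 processed signal with the 75th percentile of the array at 0, by region on the x axis and by diet (circle AD, square RFR, triangle CR). Each panel has its own y axis. Open symbols were not well above background, and the cross in the Lhx6 panel is a spot left out as an outlier. The 3 prefrontal cortex points of Vip (1.15 to 1.37) and Pvalb (0.76 to 1.39) lie above all others of those genes, and the 3 hypothalamus points of Cck (1.67 to 1.93) lie below all others.

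**Figure D2:**
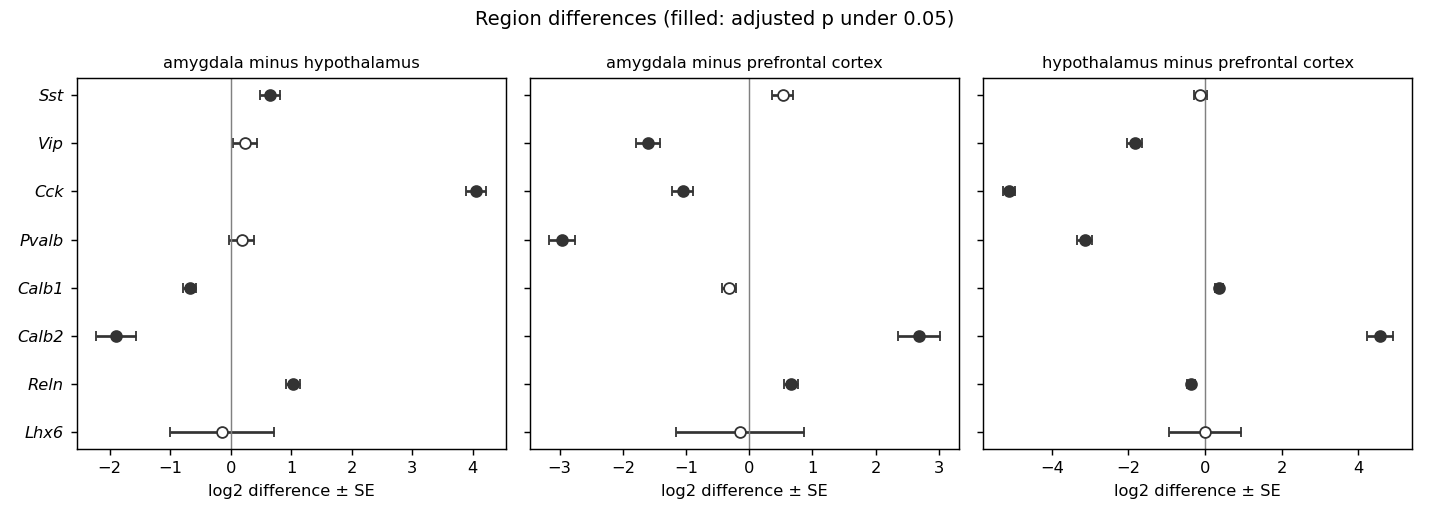
Log2 differences between regions from the limma fit over 9 arrays (x axis, 1 panel per comparison, each with its own scale), with bars of 1 SE. Filled points had an adjusted p under 0.05. Cck at -5.12 and Calb2 at 4.57 are the outermost points of the hypothalamus minus prefrontal cortex panel, and the wide bars belong to Lhx6.

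Among the peptide precursors, Cck, which encodes cholecystokinin, had the widest range. Its level in amygdala was 6.22 on the AD array, 5.82 on the RFR array and 5.61 on the CR array. In hypothalamus it was 1.67, 1.85 and 1.93 in the same order, and in prefrontal cortex 6.91, 7.01 and 6.90. The 3 regions did not overlap, with means of 5.88 ± 0.31 in amygdala, 1.82 ± 0.13 in hypothalamus and 6.94 ± 0.06 in prefrontal cortex (SD, n = 3 arrays). Amygdala exceeded hypothalamus by 4.07 ± 0.17 (SE), or 16.7-fold (adjusted p = 2e-05), and was below prefrontal cortex by 2.08-fold (-1.06 ± 0.17, adjusted p = 0.0048). Hypothalamus was below prefrontal cortex by -5.12 ± 0.17 (adjusted p = 2.1e-06). On slide 1 alone, the AD arrays gave 4.54 for amygdala minus hypothalamus, -0.69 for amygdala minus prefrontal cortex and -5.24 for hypothalamus minus prefrontal cortex. With slide as a term in the fit, amygdala minus prefrontal cortex was -0.80 and the call ended (adjusted p = 0.078, 0.0011 to 0.1 over the alternatives), as it did without the RFR pool (-0.99, adjusted p = 0.1). Cck ordered the regions as the summed markers of cortical excitatory neurons did, and the part of those cells in the result was not tested.

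Sst, which encodes somatostatin, was well above background on all 9 arrays and spanned 1.07 log2 units over them. Its level was 5.51, 5.22 and 5.25 on the AD, RFR and CR arrays of amygdala, 4.43, 4.63 and 4.96 in hypothalamus and 4.56, 4.87 and 4.95 in prefrontal cortex. All 3 amygdala values lay above the other 6, which overlapped. Means were 5.32 ± 0.16, 4.67 ± 0.26 and 4.79 ± 0.21 (SD, n = 3 arrays). Amygdala exceeded hypothalamus by 0.65 ± 0.16, or 1.57-fold (adjusted p = 0.024), in 3 of 3 diets, with 1.07 between the AD arrays of slide 1 and 0.58 between the RFR arrays of slide 2. That call ended when the RFR amygdala, AD hypothalamus or RFR hypothalamus array, the AD pool or the RFR pool was left out, with differences of 0.44 to 0.71 (adjusted p 0.0088 to 0.14 over all alternatives). The excess over prefrontal cortex, 0.53 ± 0.16, missed the threshold (adjusted p = 0.060), as did the difference of hypothalamus from prefrontal cortex, -0.12 ± 0.16 (adjusted p = 0.57).

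Vip, the precursor of vasoactive intestinal peptide, stood out in prefrontal cortex. Its level there was 1.15 (AD), 1.37 (RFR) and 1.26 (CR), against 0.05, -0.57 and -0.51 in amygdala and -0.44, -0.34 and -0.97 in hypothalamus. The prefrontal cortex values were all above the other 6, while amygdala and hypothalamus overlapped. Means were 1.26 ± 0.11, -0.34 ± 0.34 and -0.58 ± 0.34 (SD, n = 3 arrays) in prefrontal cortex, amygdala and hypothalamus. Vip was 3.03-fold lower in amygdala (-1.60 ± 0.19, adjusted p = 0.0016) and 3.58-fold lower in hypothalamus (-1.84 ± 0.19, adjusted p = 0.00029) than in prefrontal cortex, each in 3 of 3 diets. The 2 lower regions differed by 0.24 ± 0.19 (adjusted p = 0.40). Within slide 1 the AD arrays gave -1.10 and -1.59 for these comparisons with prefrontal cortex. With slide as a term, the amygdala comparison was -1.55 with an adjusted p of 0.056 (0.00014 to 0.056 over the alternatives).

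Of the calcium-binding proteins, Pvalb, the parvalbumin gene, was also highest in prefrontal cortex. It measured 0.76 (AD), 0.79 (RFR) and 1.39 (CR) there, -1.92, -2.05 and -1.96 in amygdala and -2.53, -2.48 and -1.47 in hypothalamus. Every prefrontal cortex value lay above every other one, while the hypothalamus values lay on both sides of the 3 amygdala values. Means were 0.98 ± 0.36 in prefrontal cortex, -1.98 ± 0.07 in amygdala and -2.16 ± 0.60 in hypothalamus (SD, n = 3 arrays). Pvalb was 7.78-fold lower in amygdala (-2.96 ± 0.20, adjusted p = 0.00015) and 8.84-fold lower in hypothalamus (-3.14 ± 0.20, adjusted p = 3e-05) than in prefrontal cortex. The AD arrays on slide 1 gave -2.68 and -3.29, and the CR arrays on slide 2 gave -2.87 for hypothalamus minus prefrontal cortex. Amygdala and hypothalamus differed by 0.18 ± 0.20 (adjusted p = 0.54).

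Calb2, which encodes calretinin, had the reverse order. On its brightest probe it measured 2.72 (AD), 2.57 (RFR) and 2.55 (CR) in hypothalamus, 0.11, 0.95 and 1.11 in amygdala and -1.40, -2.40 and -2.08 in prefrontal cortex. The regions did not overlap, with means of 2.62 ± 0.09, 0.72 ± 0.53 and -1.96 ± 0.51 (SD, n = 3 arrays). Calb2 was 3.71-fold lower in amygdala than in hypothalamus (-1.89 ± 0.33, adjusted p = 0.0061) and 6.41-fold higher in amygdala than in prefrontal cortex (2.68 ± 0.33, adjusted p = 0.0018). Hypothalamus exceeded prefrontal cortex 23.8-fold (4.57 ± 0.33, adjusted p = 5e-05). Calb2 had 3 probes, and all of them gave this order. For hypothalamus minus prefrontal cortex the probe printed 10 times gave 4.74 and the dimmest probe 4.93, and for amygdala minus prefrontal cortex they gave 2.95 and 3.02. The dimmest probe was well above background on 7 of 9 arrays. On slide 1 alone, the AD arrays gave -2.60, 1.51 and 4.12 for the 3 comparisons. Without the RFR pool the difference of amygdala from hypothalamus was -2.03 and the call ended (adjusted p = 0.053, 0.00037 to 0.053 over the alternatives).

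**Figure D3:**
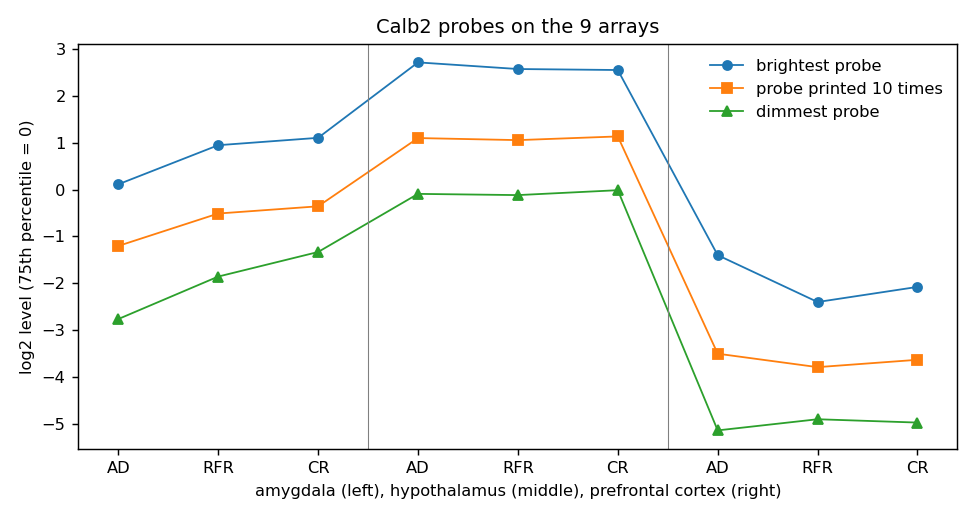
Levels of the 3 Calb2 probes on the 9 arrays, as log2 processed signal with the 75th percentile of the array at 0 (y axis), for AD, RFR and CR in amygdala, hypothalamus and prefrontal cortex (x axis, left to right; the lines join values of the same probe and mark no order). The level of a probe cannot be set against that of another. On all 3 probes the hypothalamus points lie highest, the prefrontal cortex points lie lowest, and the AD point is the lowest of the amygdala points.

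Calb1, which encodes the calcium buffer calbindin, varied less. It measured 4.82 (AD), 4.72 (RFR) and 4.72 (CR) in hypothalamus, 4.44, 4.43 and 4.29 in prefrontal cortex and 4.22, 4.20 and 3.80 in amygdala. The groups did not overlap, but the prefrontal cortex CR value of 4.29 lay close to the AD amygdala value of 4.22. Means were 4.75 ± 0.06, 4.39 ± 0.09 and 4.07 ± 0.24 (SD, n = 3 arrays). Calb1 was 1.60-fold lower in amygdala than in hypothalamus (-0.68 ± 0.11, adjusted p = 0.0044), in 3 of 3 diets. Hypothalamus exceeded prefrontal cortex by 0.37 ± 0.11 (adjusted p = 0.031), and amygdala lay -0.32 ± 0.11 below prefrontal cortex, which missed the threshold (adjusted p = 0.088). The call of hypothalamus against prefrontal cortex ended in 9 of the 12 fits that left out an array or a pool, in which the difference was 0.29 to 0.43, and the adjusted p was 0.0063 to 0.14 over all alternatives. Leaving out the RFR pool also ended the amygdala and hypothalamus call (-0.76, adjusted p = 0.050, 0.0011 to 0.05 over the alternatives).

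Reln encodes reelin, a secreted protein that positions neurons in development and acts at synapses in the adult. It measured 1.93 (AD), 1.66 (RFR) and 1.97 (CR) in amygdala, 1.09, 1.16 and 1.33 in prefrontal cortex and 0.66, 0.76 and 1.04 in hypothalamus. No region overlapped another, although the CR hypothalamus value of 1.04 came close to the AD prefrontal cortex value of 1.09. Means were 1.86 ± 0.17, 1.19 ± 0.12 and 0.82 ± 0.20 (SD, n = 3 arrays). Reln was 2.05-fold higher in amygdala than in hypothalamus (1.03 ± 0.11, adjusted p = 0.00082) and 1.58-fold higher than in prefrontal cortex (0.66 ± 0.11, adjusted p = 0.0066). Hypothalamus lay below prefrontal cortex by -0.37 ± 0.11 (adjusted p = 0.030). The last call ended in 9 of the 12 fits that left out an array or a pool (-0.42 to -0.30; adjusted p 0.0078 to 0.16 over all alternatives). The excess over prefrontal cortex lost its call with slide as a term (0.77, adjusted p = 0.051), without the RFR pool (0.75) and without the CR pool (0.67), with adjusted p from 0.0022 to 0.069 over the alternatives.

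Lhx6 was near the limit of detection. Its single spot was well above background on the 3 amygdala arrays, at -5.51 (AD), -5.06 (RFR) and -4.64 (CR), and on the CR hypothalamus array, at -1.61. It was not well above background on the AD and RFR arrays of hypothalamus (-6.43 and -6.75) or of prefrontal cortex (-5.69 and -6.03). The spot of the CR prefrontal cortex array read -2.49 but bore an outlier flag, so the fit held no Lhx6 value for that array. No comparison of regions was called, and differences ranged from -0.15 ± 1.01 for amygdala minus prefrontal cortex to -0.01 ± 0.94 for hypothalamus minus prefrontal cortex. Because that value was missing, the SE and p-values that limma gave for Lhx6 are approximate. Without the CR hypothalamus array, without the CR amygdala array, without the CR pool or with slide as a term, the fit gave 1.30 for amygdala minus hypothalamus and an adjusted p under the threshold (0.043 with slide, 0.019 to 0.95 over all alternatives). That difference is set against the AD and RFR hypothalamus spots, which were not well above background, so it is no measured fold. The values of Lhx6 in hypothalamus rest on a single spot per array.

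Diets over the 3 regions were compared next, which asks whether food restriction shifted these genes alike in all of them. None of the 8 members passed limma's adjusted threshold for CR minus AD (background 0.0% of 12615 genes), RFR minus AD (0.0159%) or CR minus RFR (0.0159%). At an unadjusted p under 0.05, CR minus AD gave 2 members among 2084 genes, CR minus RFR 2 among 1865, and RFR minus AD 0 among 776. The pair was Pvalb and Lhx6 both times. Pvalb differed by 0.55 ± 0.20 (SE) between CR and AD (adjusted p = 0.27), with a higher value on the CR array in 2 of 3 regions, and by 0.57 ± 0.20 between CR and RFR (adjusted p = 0.28), in 3 of 3 regions. For Lhx6 the fit gave 2.77 ± 1.01 and 2.85 ± 0.94 (adjusted p = 0.27 for both, SE and p approximate), over the 2 regions with a CR value. These Lhx6 differences are set against AD and RFR spots that in hypothalamus and prefrontal cortex were not well above background, so they are no measured folds. Without amygdala, whose CR array is alone on its slide, limma called Pvalb for CR minus AD at 0.84 (adjusted p = 0.046, 0.046 to 0.81 over the alternatives), and 9.8% of 12615 genes were called in that fit. Lhx6 passed there too (adjusted p = 0.043, 0.043 to 0.8 over the alternatives), but its CR value was then the single spot of CR hypothalamus. The CR arrays of that fit came from slide 2, the AD arrays from slide 1 and the RFR arrays from both. Within slide 2, Pvalb in hypothalamus differed by 1.00 between CR and RFR, and across the slides by 0.05 between RFR and AD. In prefrontal cortex the AD and RFR arrays shared slide 1 and the CR array was on slide 2. There Pvalb differed by 0.03 between RFR and AD, by 0.63 between CR and AD and by 0.60 between CR and RFR. The part of the slide in these values was not tested.

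**Figure D4:**
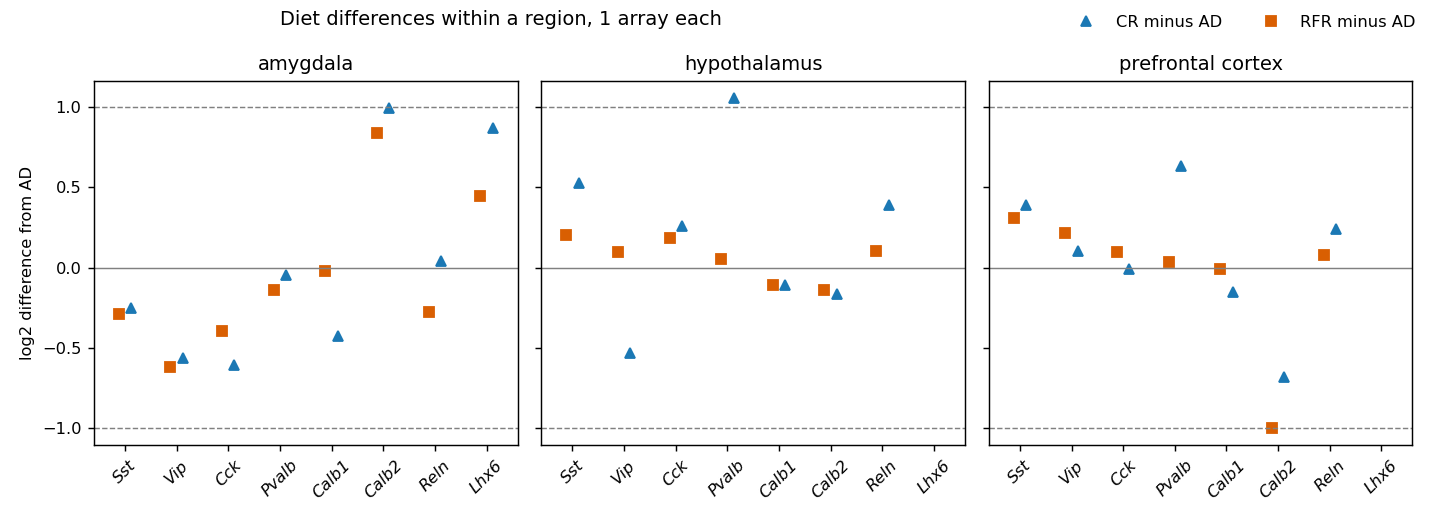
Log2 difference of each restricted diet from the AD array of the same region (y axis) for the 8 genes (x axis), squares for RFR minus AD and triangles for CR minus AD. Each point is a difference of 2 single arrays with no error, dashed lines mark a 2-fold difference, and Lhx6 is drawn in amygdala only, where its spots were well above background. In amygdala the points of Sst, Vip and Cck lie between -0.62 and -0.25 and those of Calb2 at 0.83 and 0.99, and the Pvalb triangle reaches 1.06 in hypothalamus.

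Within a region each diet had 1 array, so no test was possible. A difference of 2-fold, counted where both arrays were well above background, was reached in amygdala by 3.26% (CR minus AD), 1.47% (RFR minus AD) and 2.16% (CR minus RFR) of all genes, in hypothalamus by 1.34%, 0.691% and 0.528% and in prefrontal cortex by 1.13%, 0.971% and 0.819%. It was reached by 3 comparisons of members. Those of Pvalb shared the same CR hypothalamus spot, and the remaining one was of Calb2. Pvalb was 1.06 higher on the CR than on the AD array of hypothalamus and 1.00 higher on the CR than on the RFR array there. The CR and RFR hypothalamus arrays shared slide 2, and the AD array was on slide 1. Across slides, Pvalb on the CR array was also higher by 0.63 than on the AD array in prefrontal cortex, and -0.05 from it in amygdala. With the normexp background correction the Pvalb differences in hypothalamus were 0.67 and 0.74. Beside them, the 10 markers of meningeal fibroblasts, all well above background, had a summed level of 91.3 on the CR hypothalamus array against 40.2 (AD) and 51.2 (RFR). Ptgds carried most of that sum, at 6.28 (CR) against 4.97 (AD) and 5.45 (RFR). The median log2 level of the 10 markers was 0.06 against -0.55 and -0.70. The 8 thalamic neuron markers summed to 19.7 against 17.0 and 19.9. The part of such cells in the Pvalb values was not tested.

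The third comparison was Calb2 in prefrontal cortex, -1.0 for RFR minus AD on slide 1. It was found on the brightest probe alone, and with quantile scaling it was -0.97, short of 2-fold. The probe printed 10 times gave -0.29 and the dimmest probe, which was not well above background on every array, gave 0.24. In amygdala the Calb2 probes ran together instead. CR minus AD was 0.99 on the brightest probe, 0.85 on the probe printed 10 times and 1.43 on the dimmest, and RFR minus AD was 0.83, 0.69 and 0.91. The CR difference of the brightest probe was 0.87 with normexp, 1.05 with quantile scaling and 1.12 in the authors' deposited table.

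The peptide precursors lay the other way in amygdala. The AD array held the highest level of Sst, Vip and Cck among the 3 amygdala arrays. The median of all genes there was -0.11 for CR minus AD and -0.03 for RFR minus AD. CR and RFR differed from AD by -0.25 and -0.29 for Sst, -0.56 and -0.62 for Vip and -0.60 and -0.40 for Cck. With quantile scaling these values were -0.04 and -0.19 for Sst, -0.57 and -0.64 for Vip and -0.31 and -0.26 for Cck. Calb1 on the CR array was -0.43 from AD, and on the RFR array -0.02. In hypothalamus and prefrontal cortex Sst lay above AD on both restricted arrays, by 0.53 (CR) and 0.20 (RFR) and by 0.39 and 0.31. Opposite directions of this kind, with both restricted arrays above AD in a region and below it in another, were seen for 5 of the 7 members and for 43.5% of the genes well above background on all 9 arrays. Pvalb is among the 5 through small amygdala differences, -0.05 (CR) and -0.14 (RFR). Calb2 is among them on its brightest probe, and its dimmest probe did not show opposite directions. The AD amygdala array had also the highest summed level of cortical excitatory neuron markers, 98.3 against 61.9 (RFR) and 68.7 (CR). The median log2 level of the 12 markers was -0.71 (AD), -0.85 (RFR) and -0.76 (CR), so the sum was carried by the brightest of them. Camk2a measured 6.06 (AD), 5.26 (RFR) and 5.61 (CR), Nrn1 4.10, 3.59 and 3.31, and Neurod2 3.04, 2.72 and 2.05, while Emx1 measured -1.06, -0.97 and -0.83. The hypothalamic neuron markers summed to 14.2, 20.9 and 13.0. Their median log2 level was -2.93 (AD), -1.60 (RFR) and -1.80 (CR), so on the CR array the sum was below AD and the median above it. The part of the makeup of the dissected tissue in these differences was not tested.

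In CR hypothalamus, Lhx6 at -1.61 was 10.7-fold above the lowest signal well above background on the AD array. Against the same signal of the RFR array it was 9.69-fold higher. A spot can be brighter than that signal and still not be called well above background, so these folds are not lower limits. With the normexp background correction the Lhx6 difference in hypothalamus was 1.97 for CR minus AD and 2.50 for CR minus RFR. CR and RFR hypothalamus were on the same slide. The flagged prefrontal cortex spot of Lhx6 came from the CR pool as well. With outlier spots kept, CR minus AD for Lhx6 was 2.96 in the limma fit, with an adjusted p of 0.22.

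Receptors of the peptides were followed in a list of 10 genes, of which 7 were fitted. Between amygdala and hypothalamus 4 were higher and 2 lower in amygdala (list median 0.71), against 29.5% of all genes called. Between amygdala and prefrontal cortex 3 were higher and 2 lower (0.08), against 22.3% of all genes. Between hypothalamus and prefrontal cortex 2 were higher and 4 lower in hypothalamus (-0.75), against 48.0% of all genes. No receptor was called between diets. Cckbr, the brain cholecystokinin receptor, had levels of 1.66, 1.49 and 1.28 in amygdala, -0.34, -0.08 and 0.27 in hypothalamus and 2.42, 2.86 and 2.90 in prefrontal cortex (AD, RFR and CR). Its order of regions was that of Cck, with no overlap, and it was 6.85-fold lower in hypothalamus than in prefrontal cortex (-2.78 ± 0.19, adjusted p = 4.1e-05). Cckar, the other cholecystokinin receptor, ran opposite. It measured -0.97, -1.04 and -1.10 in hypothalamus and -4.27, -3.77 and -3.68 in amygdala, a 7.31-fold difference (-2.87 ± 0.21 for amygdala minus hypothalamus, adjusted p = 0.00016), and was not well above background in prefrontal cortex. Cckar was singled out after its values were seen.

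Of the somatostatin receptors, Sstr2 and Sstr4 were lowest in hypothalamus. Sstr2 measured 0.79, 0.80 and 0.53 in amygdala, 0.08, 0.21 and 0.28 in prefrontal cortex and -0.69, -0.54 and -0.45 in hypothalamus, and the regions did not overlap. Sstr2 was 2.40-fold higher in amygdala than in hypothalamus (1.27 ± 0.12, adjusted p = 0.00052) and 1.43-fold higher than in prefrontal cortex (0.51 ± 0.12, adjusted p = 0.026). Sstr4 measured 0.81, 0.86 and 1.07 in prefrontal cortex, -0.06, -0.34 and -0.20 in amygdala and -1.68, -1.42 and -1.07 in hypothalamus, again with no overlap. It was 4.93-fold lower in hypothalamus than in prefrontal cortex (-2.30 ± 0.15, adjusted p = 3e-05). Among receptors of the Vip family, Adcyap1r1, the receptor of the related peptide PACAP, was 2.55-fold higher in hypothalamus than in prefrontal cortex (1.35 ± 0.17, adjusted p = 0.00076). Vipr1 was 2.28-fold lower in hypothalamus than in prefrontal cortex (-1.19 ± 0.19, adjusted p = 0.0020), the direction of Vip itself, and was likewise singled out after its values were seen. Vipr2 was not well above background on any array.

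**Figure D5:**
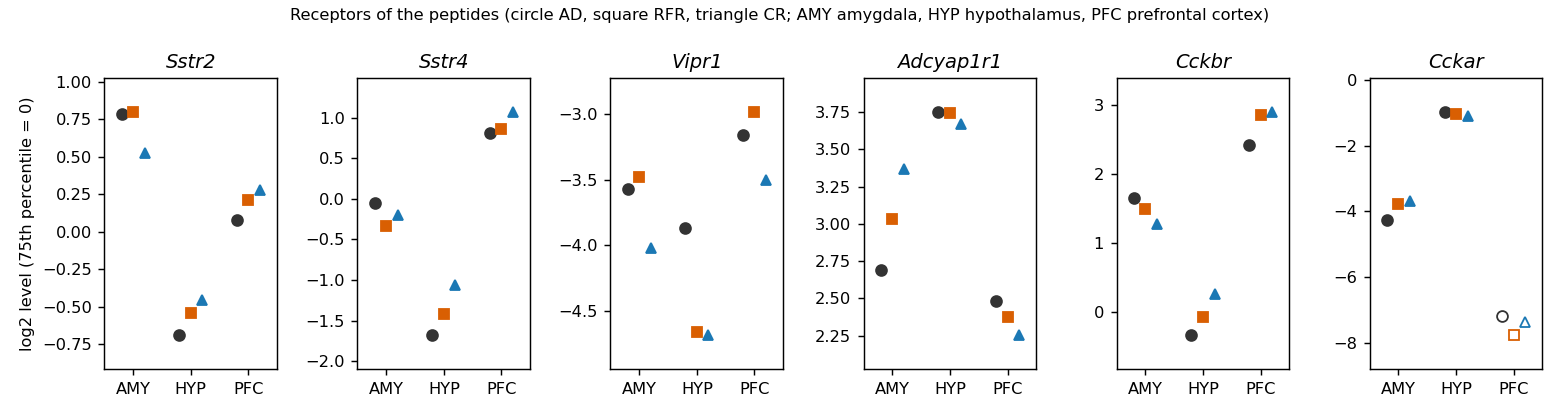
Levels of 6 receptor genes on the 9 arrays, as log2 processed signal with the 75th percentile of the array at 0 (y axis, 1 scale per panel), by region (AMY amygdala, HYP hypothalamus, PFC prefrontal cortex) and diet (circle AD, square RFR, triangle CR; open symbols were not well above background). Cckbr and Sstr4 are highest in prefrontal cortex and lowest in hypothalamus, while Cckar is highest in hypothalamus, from -1.10 to -0.97.

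Close relatives of the members gave their own patterns. Cort encodes cortistatin, a peptide related to somatostatin, and measured -0.66, -1.12 and -1.52 in amygdala, -0.54, -0.51 and -0.65 in prefrontal cortex and -3.99, -4.14 and -4.85 in hypothalamus. It was 13.5-fold lower in hypothalamus than in prefrontal cortex (-3.76 ± 0.17, adjusted p = 7.1e-06), where Sst differed by -0.12. Adcyap1, the PACAP precursor and relative of Vip, was 1.81-fold higher in hypothalamus than in prefrontal cortex (0.85 ± 0.14, adjusted p = 0.0021), where Vip was lower. Ocm, which encodes oncomodulin, the closest relative of parvalbumin, was well above background on the 3 prefrontal cortex arrays, at -3.64, -3.55 and -3.41, and on none of the other 6. Whether a member and its relative differ in their region differences was not tested.

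General GABA neuron genes set these values in context. Gad1 and Gad2, which make GABA, and Slc32a1, which packages it, were followed as a list of 3. In the limma fit all 3 were higher in amygdala than in prefrontal cortex, where 22.3% of all genes were called. Of the 3, 2 (Gad2 and Slc32a1) were higher in hypothalamus than in prefrontal cortex, where 48.0% of all genes were called. Slc32a1, the vesicular GABA transporter, was 2.08-fold higher in amygdala (1.06 ± 0.10, adjusted p = 0.00062) and 2.32-fold higher in hypothalamus (1.21 ± 0.10, adjusted p = 0.00010) than in prefrontal cortex. The summed level of the 3 genes was 103 to 120 in amygdala, 115 to 133 in hypothalamus and 50.7 to 60.9 in prefrontal cortex. Slc32a1 carried most of each sum. Prefrontal cortex had the lowest sum of these genes and the highest Vip and Pvalb. None of the 3 was called between diets by limma, with 1, 0 and 1 at an unadjusted p under 0.05 for CR minus AD, RFR minus AD and CR minus RFR. Other interneuron genes split: of 14 fitted out of 16 listed, 4 were higher and 7 lower in hypothalamus than in prefrontal cortex (48.0% of all genes called). Npy, which many somatostatin cells also make, was 3.15-fold lower in hypothalamus (-1.66 ± 0.16, adjusted p = 0.00019). Tac1, the substance P precursor, was 4.96-fold higher there (2.31 ± 0.12, adjusted p = 1.1e-05). Transcription factor genes of interneuron development, the list that Lhx6 and its partners come from, had 15 fitted genes. Of these, 11 were higher and 1 was lower in amygdala than in prefrontal cortex (22.3% of all genes called). Only 12 of the 15 were well above background on each prefrontal cortex array, so differences of the others from that region are no measured folds. Nr2f2, a factor of caudally born interneurons, was 10.7-fold higher in amygdala (3.43 ± 0.11, adjusted p = 1.2e-05). Satb1, a factor of somatostatin cells, was 2.02-fold lower in amygdala than in prefrontal cortex (-1.01 ± 0.13, adjusted p = 0.0021).

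Genes that act with reelin formed a list of 7, all fitted. Of these, 1 was higher and 1 lower in amygdala than in hypothalamus, against 29.5% of all genes called. None passed limma's adjusted threshold between amygdala and prefrontal cortex (3 at an unadjusted p under 0.05), against 22.3% of all genes. In hypothalamus 1 was higher and 3 were lower than in prefrontal cortex, against 48.0% of all genes called. Dab1, the intracellular adaptor of the reelin receptors, was 2.0-fold lower in hypothalamus than in prefrontal cortex (-1.0 ± 0.20, adjusted p = 0.0057). The receptor Vldlr differed by 0.35 ± 0.15 between amygdala and hypothalamus (adjusted p = 0.13) and by 0.36 ± 0.15 between amygdala and prefrontal cortex (adjusted p = 0.14).

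For each member that was well above background on all 9 arrays, the most similar genes were found by Pearson correlation of log2 levels over the 9 arrays among 11225 candidates. These are descriptions, since the 9 arrays share regions, pools and slides, and any gene with the same order of regions correlates highly. Cck ran most like Itpka (r = 0.998) and Nrgn (r = 0.998), both abundant in excitatory neurons. Vip ran like Crem (r = 0.982), which encodes a factor that binds the cyclic AMP response element, and Pparg (r = 0.981). For Pvalb they were Cited4 (r = 0.994) and Afap1l1 (r = 0.986), and for Calb2 the granin gene Scg2 (r = 0.993) and neuroglobin, Ngb (r = 0.991). Reln was followed by Tiam1 (r = 0.984) and Epha5 (r = 0.983), and Calb1 by Isy1 (r = 0.989) and Uox (r = 0.973). Sst had the weakest match, Ssbp2 at 0.962 and Ppfibp1 at 0.939.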

How the data were processed

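Total RNA from 4 mice per diet was pooled and 400 ng labelled with Cy3. Per the file headers, the deposited scanner files come from Agilent Feature Extraction 9.5.1.1. Their processed signal is an intensity from which that program subtracted and detrended the background of the array. Median signals of spot and surroundings are deposited intensities too, and the deposited quality columns hold other values, flags of 0 or 1. The authors' deposited table holds a ratio to the AD array of the region: 99.28% to 99.36% of its values lay within 0.01 log2 units of the scanner ratios after 1 constant per array.

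Spots flagged as outliers were dropped, and a probe took the mean of its spots. Probes printed 10 times had a median SD of 0.0632 to 0.0989 in log2 signal. RefSeq accessions named 22944 of 41174 probes through a GRCm38.p6 gene table, and the brightest probe stood for a gene. The fit was limma 3.58.1 in R 4.3.3, region plus diet, 4 residual degrees of freedom, adjusted p threshold 0.05, for genes well above background on 3 arrays or more with a value on 6 or more. It was tested on simulated data. Diet is the block that pairs arrays of a pool. The number of arrays limits the precision. Alternatives changed background correction (normexp, offset 50), scaling, filter, probe, variance model, slide, pairing, outlier spots and source of values, and left out each array, pool or region. Named are all members, up to 4 genes of a list by mean level, 3 relatives (Ocm, Cort, Adcyap1) and the 2 most correlated genes per member; Cckar, Vipr1 and Vipr2 were named after their values were seen. Members and lists were chosen with earlier results of these data known. The tables were made with Python 3.11.15. A gene of 1 list is not reported here.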

Additional observations from a re-analysis of the deposited data

Results flagged for a closer look

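Members for which both restricted diets lay above AD in a region and below AD in another were noted; the difference was not tested, and the CR and RFR differences share the AD array. Among the 11226 genes well above background on all 9 arrays, 43.5% showed such opposite directions. The mean of CR minus AD and RFR minus AD for Sst was 0.64 higher in hypothalamus and 0.62 higher in prefrontal cortex than in amygdala. Vip gave 0.75 for prefrontal cortex less amygdala, and Cck 0.72 for hypothalamus less amygdala. For Pvalb the values were 0.65 for hypothalamus less amygdala and 0.42 for prefrontal cortex less amygdala. Its amygdala differences from AD were small, -0.05 (CR) and -0.14 (RFR). In the authors' deposited table the CR difference there was 0.09, so the opposite direction of Pvalb did not hold. Calb2 had 1.07 for amygdala less hypothalamus and 1.75 for amygdala less prefrontal cortex, on its brightest probe. In prefrontal cortex the probe printed 10 times gave -0.13 (CR minus AD) and -0.29 (RFR minus AD), and the dimmest probe 0.17 and 0.24. In hypothalamus neither of these other probes lay below AD for both diets.

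The Lhx6 spot of the CR prefrontal cortex array, left out of the fit as an outlier, read -2.49 and was well above background, while the AD and RFR prefrontal cortex spots were not.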

How the results depend on the processing

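Members called between amygdala and hypothalamus numbered 5, and 2 to 6 when an array or pool was left out (2 without the RFR pool). Between amygdala and prefrontal cortex they numbered 5, 2 with slide as a fixed term and 3 to 6 in leave-one-out fits (3 without the RFR pool), and between hypothalamus and prefrontal cortex 6, with 4 to 7. For CR minus AD the count was 0, and 0 to 2 in leave-one-out fits (2 without amygdala); for RFR minus AD and CR minus RFR it was 0 under every alternative run. Comparisons of diets at 2-fold within a region numbered 3, 0 with normexp and 5 with no filter on dim genes. Without the replicate block, that is without the pairing of regions by pool, 5, 5 and 4 members were called in the 3 region comparisons; the Calb1 and Reln calls of hypothalamus against prefrontal cortex ended (adjusted p = 0.052 and 0.061).

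Reversed directions concerned differences that were not called as reported. Pvalb for amygdala minus hypothalamus was 0.18, -0.032 without the AD pool and up to 0.52 (without the CR pool) in leave-one-out fits. Lhx6 for amygdala minus hypothalamus was -0.14, 1.30 with slide as a term and -1.05 to 1.30 in leave-one-out fits; the fits that gave 1.30 called it, against spots not well above background. For amygdala minus prefrontal cortex Lhx6 was -0.15, 0.37 with slide, 0.79 without the replicate block and -1.13 to 0.58 in leave-one-out fits. For hypothalamus minus prefrontal cortex Lhx6 was -0.01, 0.14 with normexp, 0.93 without the replicate block and -0.73 to 0.84 in leave-one-out fits. The causes were not tested.

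Over all genes, calls ranged from 1427 to 4654 (3716 as reported) for amygdala minus hypothalamus, 894 to 3703 (2816) for amygdala minus prefrontal cortex and 3495 to 7286 (6054) for hypothalamus minus prefrontal cortex, the lowest each without the RFR pool. For CR minus AD they ranged from 0 to 1236 (0; 563 without the AD amygdala array), for RFR minus AD from 0 to 13 (2) and for CR minus RFR from 0 to 41 (2). Lhx6 lay near background on most arrays, which limits its differences.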

Other observations

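Perineuronal nets, the extracellular matrix that surrounds many parvalbumin cells, were followed in a list of 8 genes, of which 6 were fitted. In the limma fit 2 were higher in amygdala than in hypothalamus, against 29.5% of all genes called either way. In amygdala 2 were lower than in prefrontal cortex (22.3% of all genes called). In hypothalamus 3 were lower than in prefrontal cortex (48.0% of all genes called). Ncan, which encodes neurocan, measured 5.26 (AD), 5.28 (RFR) and 4.99 (CR) in amygdala, 4.41, 4.13 and 4.06 in hypothalamus and 5.87, 5.76 and 5.51 in prefrontal cortex, with no overlap, and was 2.85-fold lower in hypothalamus than in prefrontal cortex (-1.51 ± 0.10, adjusted p = 3.1e-05). Hapln4, a link protein of these nets, was 1.78-fold lower in amygdala than in prefrontal cortex (-0.83 ± 0.19, adjusted p = 0.021). Acan, which encodes aggrecan, the core protein of the nets, differed by 0.25 ± 0.15 between hypothalamus and prefrontal cortex (adjusted p = 0.21) and by 0.06 ± 0.15 between amygdala and prefrontal cortex (adjusted p = 0.83). Pvalb itself differed 8.84-fold and 7.78-fold in these comparisons; whether Acan and Pvalb differ in them was not tested.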
